A study of Homo sapiens with 40 samples.

Results

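YBX1 and YBX3 are the mRNAs of the Y-box proteins YB-1 and YBX3, 2 of the 55765 gene symbols counted in each library. They were taken by symbol from every library and followed across all 12 groups beside 5 other genes of the cold-shock domain family (YBX2, CSDC2, CARHSP1, LIN28A and LIN28B). YBX1 was chosen by its measured values, a low count in the eIF4A2 IP and a move towards polysomes after CNOT1 siRNA. Its values in these comparisons, and in those that share their libraries, are therefore given as a description without a test. YBX3 and the other relatives were tested wherever they passed the count filter. They too were listed with earlier results of these data known, which limits what their tests can show.

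All 40 RNA-Seq libraries came from HEK293, an established human embryonic kidney cell line. In the RNA immunoprecipitation experiment (RIP), cells without siRNA gave total RNA and RNA recovered in a short IP with an antibody against endogenous eIF4A1, eIF4A2 or DDX6, with 3 libraries per group and no control-antibody library analysed here. In the sucrose gradient experiment, cells carried control siRNA or CNOT1 siRNA. Each siRNA gave 4 libraries of input RNA, 4 of pooled subpolysomal fractions and 4 of pooled polysomal fractions. For the TNRC6 experiment, total RNA came from cells with control siRNA or with siRNAs against TNRC6A and TNRC6B together, at 2 libraries each. Each target was addressed by a single siRNA in one cell line.

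Proteins of this family bind RNA through the cold-shock domain, a small beta-barrel fold. YB-1 is one of the most abundant proteins of cytoplasmic mRNPs, where it coats mRNA, and at high coverage it keeps mRNA out of translation. YB-1 also binds its own mRNA and represses it, a control opposed by the poly(A)-binding protein PABPC1. DDX6 is a DEAD-box translational repressor and decapping activator, and CNOT1 is the scaffold of the Ccr4-Not deadenylase. eIF4A1 and eIF4A2 are closely related DEAD-box helicases with distinct roles. The authors report that eIF4A1 belongs to the translation initiation complex, whereas eIF4A2 associates with Ccr4-Not and represses initiation. TNRC6A and TNRC6B are GW182 proteins that couple Argonaute to Ccr4-Not.

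YBX1 lies on the forward strand of chromosome 1 (GRCh37, 43148089 to 43169476) and YBX3 on the reverse strand of chromosome 12 (10851688 to 10875922). The reference mRNA of YBX1 in GENCODE is 2979 nt long, with a 5′UTR of 148 nt, a coding sequence of 975 nt and a 3′UTR of 1856 nt. That of YBX3 is 1931 nt long, with 212, 1119 and 600 nt. Because both are counted from 75-cycle reads, it matters how far the genes share sequence. The longest identical stretch of their coding sequences was 20 bases, in exon 4 of each gene, and the capitals mark it inside the 30 bases around it, 5′ to 3′ on the strand of the gene.
YBX1 coding bases 296 to 325 (chromosome 1, 43161901 to 43161930): accttCGCAGTGTAGGAGATGGAGAgactg
YBX3 coding bases 392 to 421 (chromosome 12, 10868322 to 10868351): atctgCGCAGTGTAGGAGATGGAGAaactg
No 75-base window of one mRNA came closer than 7 mismatches to a window of the other. Reads of that length from 1 member therefore differ from the other member's mRNA at 7 or more bases.

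Processed pseudogenes were a closer match than the paralogue. Of the 2905 75-base windows of the YBX1 mRNA, 48.4% occurred elsewhere in the genome with at most 2 mismatches, as did 94.5% of the windows inside its coding sequence. For YBX3 this was 27.3% of 1857 windows. The pseudogene YBX1P1 (chromosome 14, 66479548 to 66480507, reverse strand) was the one Y-box pseudogene to reach a group mean of 1 CPM (the count of a gene scaled by the TMM-adjusted size of its library). It had 6.10 ± 2.74 CPM (SD, n = 4) in control subpolysomal RNA and 1.75 ± 0.13 (SD, n = 4) in control input. In RIP total RNA it had 0 to 3 counts per library. Adding all pseudogene counts to YBX1 turned the sign of none of its 12 log2 fold changes and changed none of the 3 tested calls. These counts were too few to do so, since YBX1 had 8635 CPM in control subpolysomal RNA beside the 6.10 of YBX1P1. The addition therefore cannot show what reads that fit several places did to the YBX1 counts. How reads that fitted several places were counted is not given in the sources used here, so the level of YBX1 is uncertain. Whether that also touched the YBX1P1 counts, which were near 0 in the RIP and TNRC6 experiments, was not tested.

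Library totals ran from 15353317 to 46018900 counts, and YBX1 and YBX3 passed the count filter in all 3 experiments. Of the HEK293 markers, NEFL, NEFM, VIM and LIN28B had at least 66.1 CPM in all libraries, whereas PAX2 did not exceed 1.57 CPM. Markers of other cell types (PTPRC, ALB, HBB, CD3E, COL1A2 and KRT5) stayed at or below 0.40 CPM. CNOT1 fell from 672 CPM in control input to 39.6 after CNOT1 siRNA. In the polysomal fraction it went against the labels of replicate 3: the library labelled control siRNA polysomal replicate 3 had 28.3 CPM, and the library labelled CNOT1 siRNA polysomal replicate 3 had 631. The labels were kept. Gradient results of YBX1 and YBX3 are also given without both libraries, as are other gradient values where leaving them out changes a call or moves a value by over 1.5 times.

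Both Y-box mRNAs were abundant. In control input YBX1 had 728 ± 51 CPM per kb of mRNA (SD, n = 4), rank 75 of 17685 coding genes on this scale. YBX3 had 228 ± 9.1 CPM per kb, rank 239. LIN28B, which blocks let-7 maturation, stood at 44.2 ± 1.0 CPM per kb and CARHSP1, a small calcium-regulated RNA-binding protein, at 26.4 ± 0.92. CSDC2, known from the brain, had 0.44 ± 0.05. YBX2, the germ-cell Y-box protein, had at most 16 counts in any library and LIN28A at most 2, so neither is described in detail. LIN28A did not pass the count filter in any experiment, and YBX2 and CSDC2 did not pass it in the TNRC6 experiment.

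YBX1 covered a wide range over the 12 groups. CPM were scaled within each experiment, so the order of groups from different experiments is only a rough guide, for YBX3 as well. The 4 control subpolysomal libraries had 7027, 10615, 6912 and 9984 CPM, above all other libraries of the series. After CNOT1 siRNA, the subpolysomal libraries had 2909, 3965, 1816 and 3016 CPM. RIP total RNA had 2497, 2830 and 1754 CPM, control input 2293, 2274, 1967 and 2137, and the TNRC6 experiment 1505 to 2578. These total RNA groups overlapped.

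Polysomal YBX1 was lower, with 1709, 1771, 1065 and 1563 CPM after control siRNA and 1204, 1272, 1561 and 1196 after CNOT1 siRNA. Input after CNOT1 siRNA held 1249, 1326, 1039 and 1233 CPM. The IPs gave the lowest levels: 743, 1132 and 593 CPM in the DDX6 IP, 252, 896 and 430 in the eIF4A1 IP, and 323, 352 and 120 in the eIF4A2 IP. In the order of group means, only control subpolysomal RNA was separated from its neighbour. Every other pair of neighbours overlapped.

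YBX3 followed nearly the same order on a narrower scale. Control subpolysomal libraries had 1204, 1595, 1165 and 1493 CPM, and subpolysomal libraries after CNOT1 siRNA had 653, 820, 536 and 771. RIP total RNA had 516, 586 and 464 CPM, control input 458, 451, 428 and 422, and the TNRC6 experiment 312 to 498. Control polysomal libraries had 375, 345, 252 and 294 CPM and those after CNOT1 siRNA 267, 263, 302 and 236.

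CNOT1 siRNA input was tight for YBX3, at 297, 314, 306 and 303 CPM. The DDX6 IP had 251, 209 and 227 CPM, the eIF4A1 IP 101, 212 and 197, and the eIF4A2 IP 200, 169 and 124. Neighbouring groups were separated at 2 places, between control and CNOT1 siRNA subpolysomal RNA and between RIP total RNA and control input, which come from different experiments. The plot of levels shows both genes side by side.

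**Figure D1:**
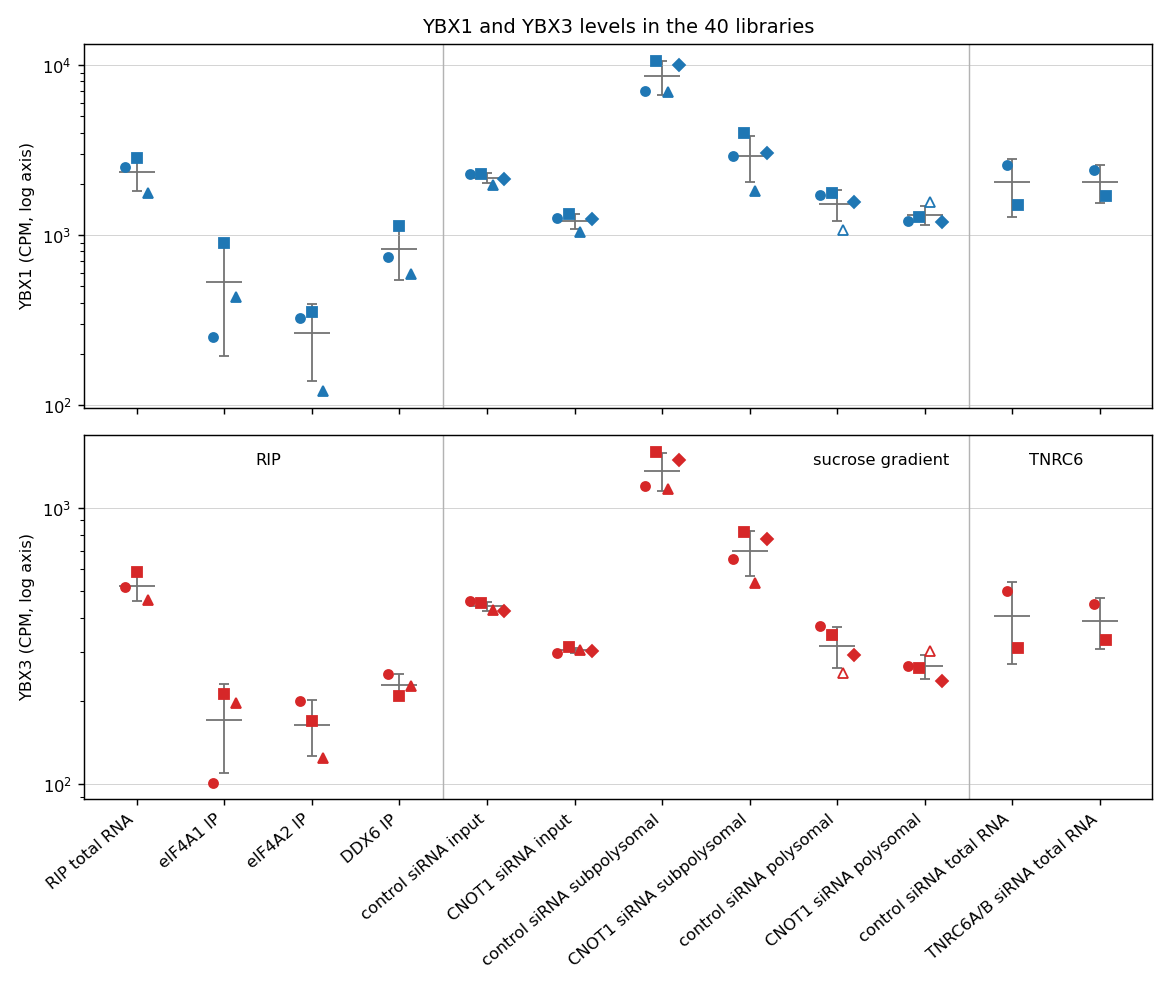
Levels of YBX1 (upper panel) and YBX3 (lower panel) in CPM on a log axis in each library of the 12 groups. Symbols mark replicates 1 to 4 (circle, square, triangle, diamond), open triangles the 2 polysomal libraries of replicate 3, and grey bars the mean ± SD. By mean, control subpolysomal RNA is highest and the eIF4A2 IP lowest for both genes, with CPM scaled within each experiment.

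The RIP experiment asks which mRNAs each DEAD-box protein recovers relative to total RNA. Both Y-box mRNAs were under-represented in all 3 IPs, and YBX1 most of all in the eIF4A2 IP. YBX1 was 4.49-fold lower than total RNA in the eIF4A1 IP (log2 fold change -2.17), 8.90-fold lower in the eIF4A2 IP (-3.15) and 2.87-fold lower in the DDX6 IP (-1.52). In each case no IP library overlapped total RNA. How many of all genes separate in this way is not given, here or in the comparisons below, so separation is a description only. In the eIF4A2 IP it ranked 18 from the lowest of 17474 genes, the value for which it had been picked. The share of all tested genes past an edgeR FDR of 0.05 was 52.6% in the eIF4A1 IP, 50.3% in the eIF4A2 IP and 46% in the DDX6 IP, so that a call alone sets no gene apart here. The 3 comparisons share the total RNA libraries.

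YBX3 passed the test in each of them. It was 3.07-fold lower in the eIF4A1 IP (log2 fold change -1.62, SE 0.25, edgeR FDR = 0.000146), 3.18-fold lower in the eIF4A2 IP (-1.67, SE 0.25, edgeR FDR = 0.000116) and 2.28-fold lower in the DDX6 IP (-1.19, SE 0.25, edgeR FDR = 0.0017). All 3 IP libraries lay below all 3 total RNA libraries each time. With the replicate number as a block YBX3 passed in all 3 comparisons as well.

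The IPs were also compared directly. YBX1 was 1.98-fold lower in the eIF4A2 IP than in the eIF4A1 IP (log2 fold change -0.99), with overlapping libraries (120 to 352 against 252 to 896 CPM) and a lower value in 2 of the 3 same-numbered pairs. It was 3.10-fold lower than in the DDX6 IP (-1.63), without overlap. YBX3 differed by -0.05 (SE 0.24) between the eIF4A2 and eIF4A1 IPs (edgeR FDR = 0.936), and its value ran from -0.32 without eIF4A1 IP replicate 1 to 0.15 without eIF4A1 IP replicate 2. Between the eIF4A2 and DDX6 IPs YBX3 differed by -0.48 (SE 0.24, edgeR FDR = 0.175, 0.111 with the replicate block), although the 3 libraries of each IP did not overlap. Of all genes, 1.06% passed between the eIF4A2 and eIF4A1 IPs and 21.1% between the eIF4A2 and DDX6 IPs.

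The comparison of the DDX6 and eIF4A1 IPs had not chosen YBX1, and there it could be tested. It did not pass: YBX1 differed by 0.65 (SE 0.45, edgeR FDR = 0.542, 0.153 with the replicate block) and YBX3 by 0.43 (SE 0.24, edgeR FDR = 0.453). Libraries of both genes overlapped, although YBX1 was higher in the DDX6 IP in 3 of 3 same-numbered pairs. Only 0.0916% of genes passed in this comparison, 14 higher and 2 lower. With the replicate block the counts rose to 1062 higher and 668 lower, and between the eIF4A2 and eIF4A1 IPs from 170 higher and 15 lower to 1245 and 1521. Between the eIF4A2 and DDX6 IPs they rose from 1716 higher and 1969 lower to 3232 and 3842.

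The ratio of the 2 members within a library needs no scaling between libraries. RIP total RNA held 3.78 to 4.84 YBX1 counts per YBX3 count, the DDX6 IP 2.61 to 5.41 and the eIF4A1 IP 2.18 to 4.23. In the eIF4A2 IP the ratio was 0.97 to 2.08, below every other library of the series. Subpolysomal RNA after control siRNA held the opposite end, with 5.84 to 6.69 YBX1 counts per YBX3 count. Since the values of YBX1 in these libraries had picked it, the ratios restate that choice in part and are not tested.

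**Figure D2:**
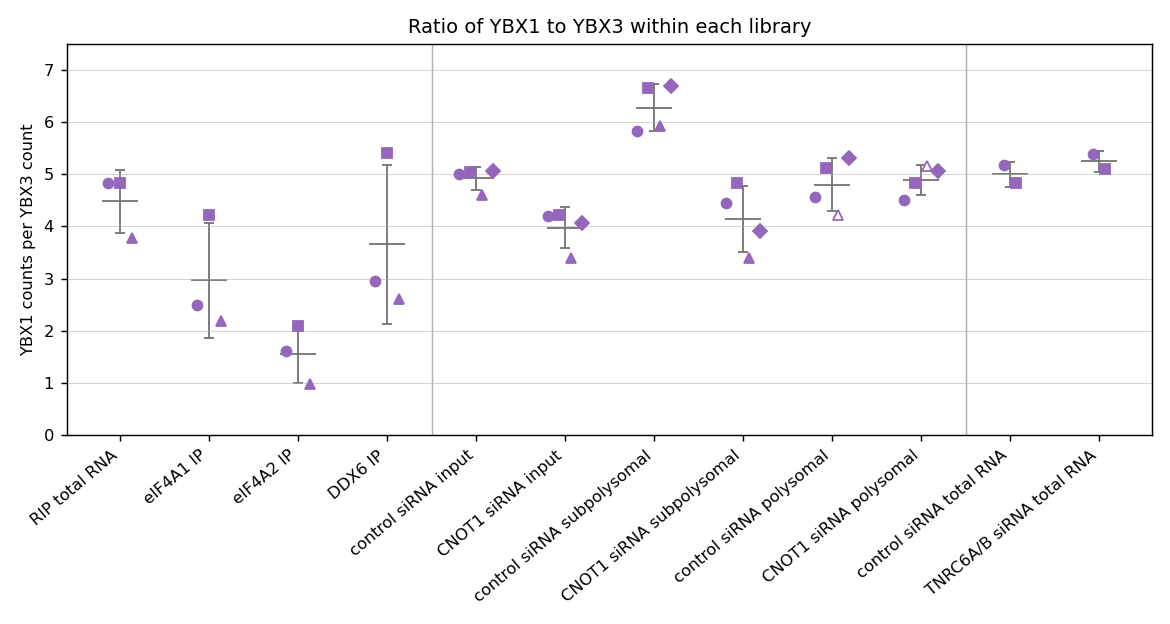
YBX1 counts per YBX3 count (vertical axis, no unit) in each library of the 12 groups. Symbols mark replicates, open triangles the 2 polysomal libraries of replicate 3, and grey bars the mean ± SD; the eIF4A2 IP lies at 0.97 to 2.08 and control subpolysomal RNA at 5.84 to 6.69.

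The other relatives had smaller differences. Besides YBX3, 2 of the 4 other relatives tested passed as lower in the eIF4A2 IP than in total RNA: CARHSP1 (log2 fold change -0.57, SE 0.18, edgeR FDR = 0.0169) and LIN28B (-0.78, SE 0.14, edgeR FDR = 0.0006). Over all 17474 genes 4509 passed as lower in that comparison, with 50.3% called in all, so this count does not set the family apart. In the eIF4A1 IP LIN28B was lower (-0.60, SE 0.14, edgeR FDR = 0.00351) and CSDC2, at 4.57 to 6.01 CPM against 3.02 to 3.83, was higher (0.55, SE 0.20, edgeR FDR = 0.0346). The CARHSP1 call was lost without total RNA replicate 1 or 2 or eIF4A2 IP replicate 1 (edgeR FDR = 0.0571 to 0.0847), and the CSDC2 call without total RNA replicate 1 or 3 or eIF4A1 IP replicate 1 (0.0717 to 0.137).

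Between the eIF4A2 and DDX6 IPs 2 of these relatives were lower in the eIF4A2 IP, CARHSP1 (log2 fold change -0.83, SE 0.18, edgeR FDR = 0.00771) and LIN28B (-0.50, SE 0.14, edgeR FDR = 0.0282). Over all 17474 genes 1969 passed as lower in that comparison, with 21.1% called in all. The LIN28B call was lost without eIF4A2 IP replicate 1 or 3 or any of the 3 DDX6 IP libraries (edgeR FDR = 0.0514 to 0.0979). The replicate block brought past the threshold LIN28B in the DDX6 IP against total RNA (-0.28, edgeR FDR = 0.0373), and CARHSP1 (-0.52, 0.0279) and CSDC2 (-0.61, 0.0452) between the eIF4A2 and eIF4A1 IPs.

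**Figure D3:**
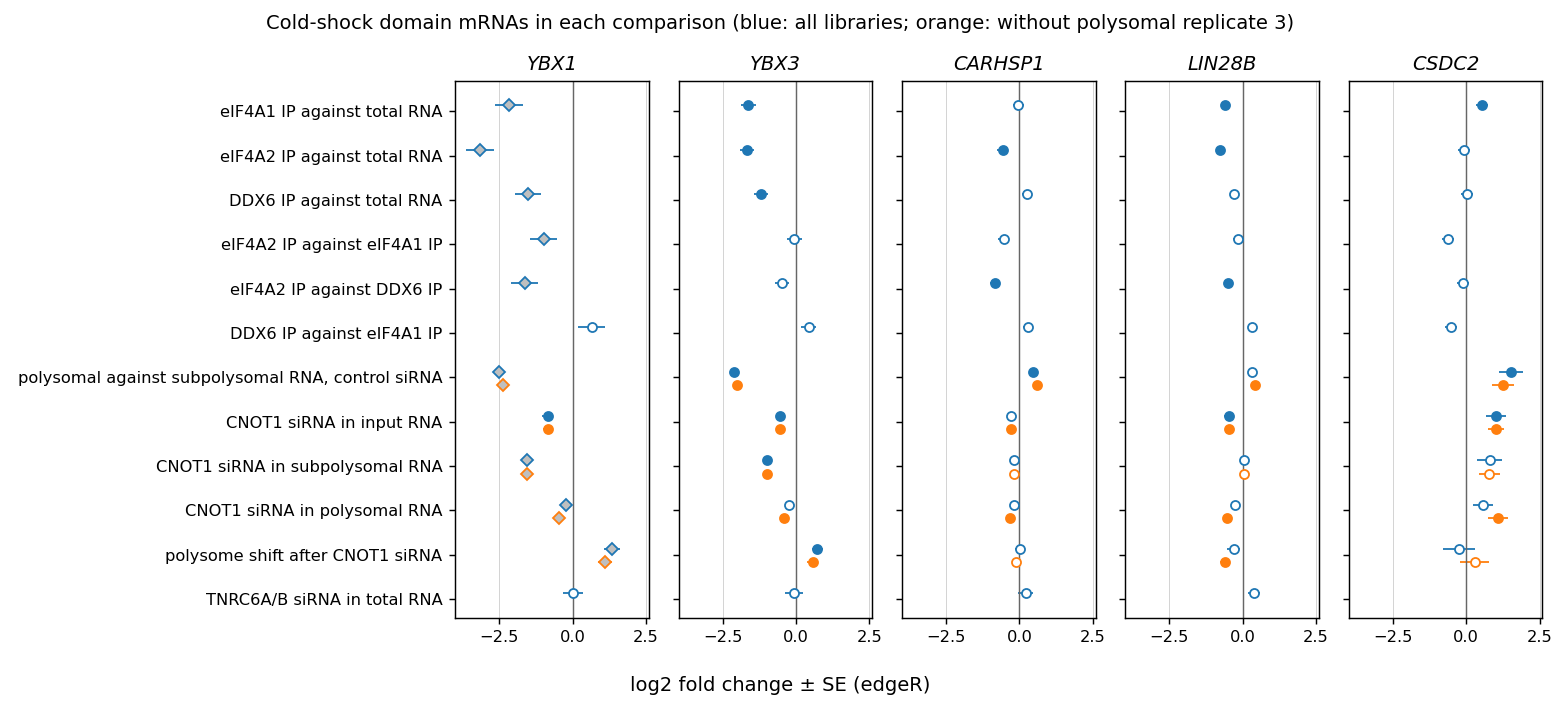
Log2 fold change ± SE (edgeR) of 5 cold-shock domain mRNAs (panels) in 12 comparisons (rows). Blue symbols use all libraries and orange symbols leave out polysomal replicate 3; filled circles passed an FDR of 0.05, open circles did not, and grey diamonds mark YBX1 values given without a test. YBX1 in the eIF4A2 IP, at -3.15, is the lowest value shown.

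The gradient experiment asks how mRNAs divide between subpolysomal and polysomal RNA and how CNOT1 siRNA alters that. CPM are relative to the other mRNAs of each fraction, so the values do not say how many molecules a fraction holds. After control siRNA both Y-box mRNAs had far lower CPM in polysomal than in subpolysomal RNA. YBX1 was 5.66-fold lower (log2 fold change -2.50, -2.36 without polysomal replicate 3). YBX3 was 4.31-fold lower (-2.11, SE 0.14, edgeR FDR = 1.69e-12, and -2.01 without polysomal replicate 3, edgeR FDR = 6.22e-12). The fractions did not overlap for either gene. Of all genes, 71.7% passed in this comparison, and 72.6% without polysomal replicate 3, so the sizes are given beside the calls.

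The other relatives went both ways. YBX2 was lower in polysomal RNA (log2 fold change -2.06, SE 0.55, edgeR FDR = 0.00189), at no more than 10 counts per library of these groups. CARHSP1 (log2 fold change 0.47, SE 0.12, edgeR FDR = 0.00101) and CSDC2 (1.53, SE 0.41, edgeR FDR = 0.00172) were higher, the latter at 0.27 to 2.62 CPM. The CARHSP1 call was lost when only the compared libraries were fitted (edgeR FDR = 0.0538). LIN28B stood at 0.32 (SE 0.16, edgeR FDR = 0.0684) and passed without polysomal replicate 3, at 0.42 (edgeR FDR = 0.00488).

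CNOT1 siRNA lowered both members in input RNA, whose libraries had not chosen YBX1, so that it was tested there. The paper describes the input as an aliquot of the fractionated lysate, and all gradient libraries share a fit. The YBX1 test in input is therefore not independent of the values that picked the gene. YBX1 fell from 2168 ± 151 to 1212 ± 122 CPM (SD, n = 4 each), 1.79-fold (log2 fold change -0.84, SE 0.19, edgeR FDR = 0.00673). YBX3 fell from 440 ± 17 to 305 ± 6.8 CPM (SD, n = 4 each), 1.44-fold (-0.53, SE 0.13, edgeR FDR = 0.00886). In both genes the 4 CNOT1 siRNA libraries lay below the 4 control libraries. Of all genes, 29% passed, and 41.3% without polysomal replicate 3, a setting in which the FDR values of YBX1 and YBX3 were 0.000382 and 0.000988.

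Of the relatives, LIN28B also fell in input (log2 fold change -0.48, SE 0.16, edgeR FDR = 0.0252), whereas CSDC2 rose from 0.99 to 1.26 CPM to 1.98 to 2.88 CPM (1.02, SE 0.34, edgeR FDR = 0.0279). The LIN28B call was lost without input control replicate 2 or 4 or CNOT1 siRNA replicate 1 or 4 (edgeR FDR = 0.0504 to 0.0588), and the CSDC2 call without control replicate 2, 3 or 4 or CNOT1 siRNA replicate 3 (0.053 to 0.0852). CARHSP1 had -0.28 (SE 0.12, edgeR FDR = 0.0705, 0.0158 without polysomal replicate 3).

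In subpolysomal RNA the fall was steeper for the Y-box pair and was not called for the other relatives. YBX1 was 2.95-fold lower after CNOT1 siRNA (log2 fold change -1.56), at 1816 to 3965 against 6912 to 10615 CPM and rank 68 from the lowest of 16776 genes. YBX3 was 1.96-fold lower (-0.97, SE 0.13, edgeR FDR = 1.35e-05), at 536 to 820 against 1165 to 1595 CPM. Neither gene's groups overlapped. CARHSP1 had -0.19 (SE 0.12, edgeR FDR = 0.209) and LIN28B 0.05 (SE 0.16, edgeR FDR = 0.824). Of all genes, 32.2% passed, and 42.8% without polysomal replicate 3, a setting that left the log2 fold changes of YBX1 and YBX3 in input and subpolysomal RNA the same to 2 decimals.

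In polysomal RNA the outcome rested on the 2 libraries of replicate 3. With them, YBX1 had a log2 fold change of -0.22 and YBX3 of -0.25 (SE 0.13, edgeR FDR = 0.663), and 0% of genes passed in edgeR, as in DESeq2, with 1123 genes at an unadjusted p under 0.05. Without them, control and CNOT1 siRNA libraries separated. YBX1 had 1563 to 1771 against 1196 to 1272 CPM (-0.46), and YBX3 had 294 to 375 against 236 to 267 CPM (-0.41, SE 0.13, edgeR FDR = 0.0238), with 32.5% of genes passing. In that setting CARHSP1 (-0.31, edgeR FDR = 0.0238) and LIN28B (-0.55, 0.00342) were lower too, and CSDC2 was higher (1.09, 0.0134).

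The polysome shift takes the log2 effect of CNOT1 siRNA on the polysomal libraries and subtracts the one on the subpolysomal libraries, with which the comparisons above share their libraries. For YBX1 it was 1.34 on the log2 scale (1.10 without polysomal replicate 3), rank 206 from the highest of 16776 genes, one of the values that had picked it. For YBX3 it was 0.73 (SE 0.19, edgeR FDR = 0.0226) and 0.57 without polysomal replicate 3 (SE 0.18, edgeR FDR = 0.0283). Fitting only the 16 compared libraries left the YBX3 value at 0.73 but ended the call (edgeR FDR = 0.131). In both genes the subpolysomal value was the more negative of the 2. Of all genes, 5.66% passed, and 18% without polysomal replicate 3. With RLE factors in place of TMM the share of higher genes among those called went from 57.6% to 46.5%.

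The same shift can be set out by gradient, if subpolysomal and polysomal libraries of the same siRNA and replicate number are taken to share a gradient. The deviations of such libraries from their group means correlated at -0.44 to 0.19 after control siRNA and -0.23 to -0.12 after CNOT1 siRNA. These correlations do not show that the numbers pair them, and the SDs and exact tests below rest on that assumption. The log2 polysomal/subpolysomal ratio of YBX1 was -2.50 ± 0.31 (SD, n = 4) after control siRNA and -1.12 ± 0.62 (SD, n = 4) after CNOT1 siRNA. Without replicate 3 these were -2.43 ± 0.34 and -1.42 ± 0.20 (SD, n = 3). For YBX3 the ratio was -2.11 ± 0.29 against -1.36 ± 0.40 (SD, n = 4), a difference of 0.74 (two-sided exact permutation test, p = 0.0571, where 4 against 4 allows no less than 0.0286). Without replicate 3 the difference was 0.53 (exact p = 0.2, where 0.1 is the smallest possible). CNOT1 siRNA gradients of YBX1 did not overlap those of control siRNA, and those of YBX3 did. Between same-numbered gradients the YBX3 ratio was higher after CNOT1 siRNA in 4 of 4, by 0.39, 0.57, 1.38 and 0.64, and the YBX1 ratio by 0.77, 0.94, 2.48 and 1.34. The largest value of each gene is that of replicate 3, whose polysomal CNOT1 counts go against the labels. Replicate numbers did not pair the polysomal libraries between the siRNAs, so these differences are a description and not a paired comparison.

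The other relatives were not called higher. On the scale of the edgeR fit CARHSP1 had 0.02 (SE 0.17, edgeR FDR = 0.967), and -0.12 (edgeR FDR = 0.617) without polysomal replicate 3. LIN28B had -0.31 (SE 0.22, edgeR FDR = 0.445) and passed in the opposite direction without polysomal replicate 3, at -0.60 (SE 0.18, edgeR FDR = 0.0215). In the gradient labelled CNOT1 siRNA replicate 3 the ratios of YBX1, YBX3 and LIN28B were each the highest of the 8.

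**Figure D4:**
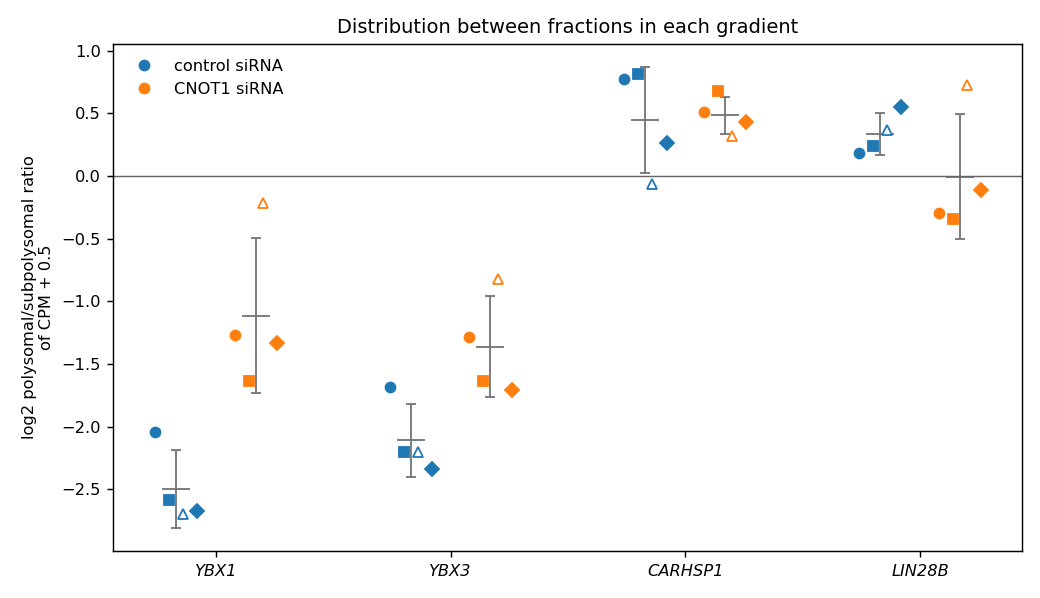
Log2 ratio of polysomal to subpolysomal CPM + 0.5 for 4 mRNAs in each of 4 control siRNA (blue) and 4 CNOT1 siRNA (orange) gradients. Symbols mark replicates, open triangles replicate 3, and grey bars the mean ± SD; YBX1 moves from a mean of -2.50 to -1.12 and YBX3 from -2.11 to -1.36.

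After knockdown of TNRC6A and TNRC6B no difference of either member was called. YBX1 had 2578 and 1505 CPM after control siRNA and 2419 and 1698 after TNRC6A/B siRNA (log2 fold change 0.01, SE 0.33, edgeR FDR = 1.0). YBX3 had 498 and 312 against 449 and 332 CPM (-0.05, SE 0.31, edgeR FDR = 1.0). The 2 libraries of a group differed more than the groups did, and same-numbered libraries of the 2 groups deviated together (correlation 0.86). With the replicate block 520 genes passed as higher and 243 as lower, YBX1 and YBX3 not among them. Without the block, in edgeR 0% of genes passed, with 289 at an unadjusted p under 0.05 and 8 called by DESeq2. The targets also went uncalled, although TNRC6A fell from 183 to 52.6 CPM and TNRC6B from 70.3 to 22.0. This fit therefore cannot decide whether YBX1 or YBX3 changed. CARHSP1 (0.22, SE 0.25) and LIN28B (0.38, SE 0.22) did not pass either.

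The mRNAs of proteins that share mRNPs with YB-1 were taken as a list of 17. In both eIF4A IPs 13 of them passed as lower than total RNA and 2 as higher, and in the DDX6 IP 8 as lower and 2 as higher. Over all 17474 genes 4638, 4509 and 4079 passed as lower, with the 52.6%, 50.3% and 46% called in all. Their median log2 fold change was -0.63, -0.72 and -0.41, against 0.04, 0.01 and 0.01 over all genes. SERBP1, a ribosome-associated mRNA-binding protein (-2.24, SE 0.21), and HNRNPU, a nuclear scaffold RNA-binding protein (-2.11, SE 0.28), were lowest in the eIF4A2 IP. The 2 higher ones were PABPC1 (1.14, SE 0.17) and FMR1 (0.58, SE 0.12), the fragile X protein.

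In the control gradients 13 of 17 partner mRNAs were higher in polysomal RNA and 3 lower, where 71.7% of all genes were called (5837 higher and 6199 lower). The median log2 fold change was 0.51 against -0.02 over all genes. SERBP1 (1.61, SE 0.12), HNRNPU (1.81, SE 0.14) and the stress granule protein mRNA G3BP2 (1.82, SE 0.15) were among the higher ones. The 3 lower were PABPC1 (-3.62, SE 0.21), PURB (-1.80, SE 0.20) and IGF2BP3 (-0.36, SE 0.12). Without polysomal replicate 3 the counts were 11 and 3. After CNOT1 siRNA PABPC1 alone among the 17 passed for the polysome shift (1.35, SE 0.27, edgeR FDR = 0.00371), where 5.66% of all genes were called, and without polysomal replicate 3 the counts were 3 higher and 1 lower.

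**Figure D5:**
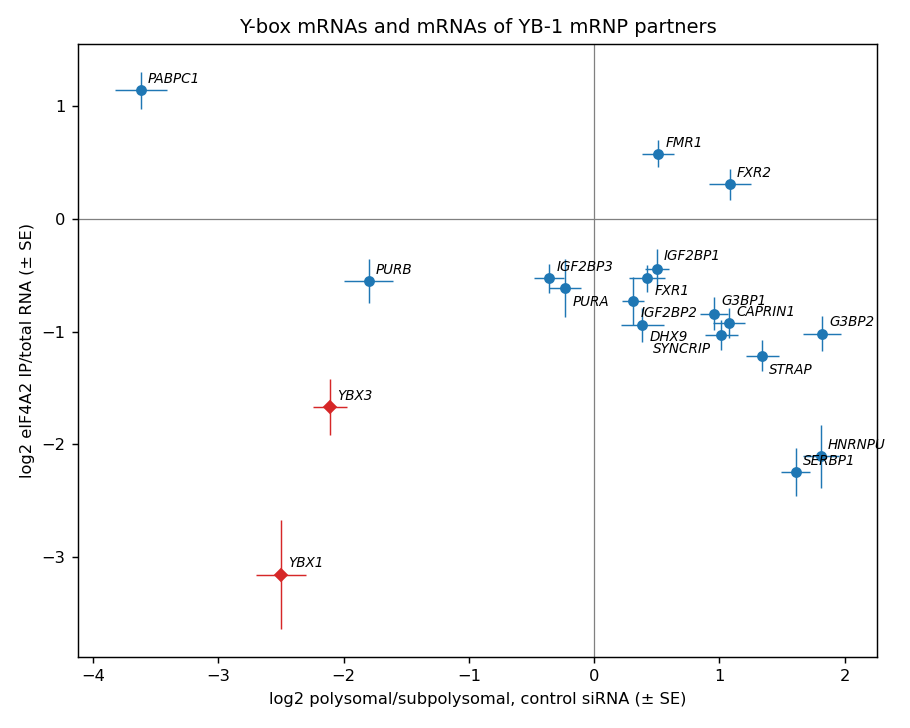
Log2 fold change ± SE of YBX1 and YBX3 (red diamonds) and of 17 mRNAs of YB-1 mRNP partners (blue circles), with polysomal against subpolysomal RNA after control siRNA on the horizontal axis and eIF4A2 IP against total RNA on the vertical axis. YBX1 and YBX3 lie at the lower left, PABPC1 at the upper left (-3.62, 1.14) and SERBP1 and HNRNPU at the lower right.

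The mRNAs with the profile most like YBX1 were looked for by the root mean square difference of log2 group means over the 12 groups, each experiment centred, among 9694 genes. The nearest were EEF1A1 (0.359), RPL4 (0.365), YBX3 (0.372), RPL26 (0.373) and RPL23A (0.378), where the median gene lay at 1.05. EEF1A1 encodes the elongation factor that brings aminoacyl-tRNA to the ribosome, and the RPL genes encode proteins of the large ribosomal subunit. How much of their sequence recurs in pseudogenes was not measured here. Nearest to YBX3 were RPLP0 (0.235), TPT1 (0.237), RPL39 (0.238), ZNF169 (0.248) and EEF1A1 (0.248), and YBX1 came at rank 117. The same 5 genes were nearest to each without polysomal replicate 3. In the eIF4A2 IP EEF1A1 had a log2 fold change of -1.85 and RPL4 of -2.22, less negative than the -3.15 of YBX1. In the polysome shift EEF1A1 had 1.18 and RPL4 1.17.

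Purine runs are where rocaglate compounds clamp eIF4A on RNA. Purine tetramers (AAGA or AGAA or GAAA or GAGA or AGAG or GGAA or AAAA or GAAG on the sense strand, counted without overlap) occurred 1.35 times per 100 nt in the YBX1 5′UTR and 3.77 times in that of YBX3, against a median of 1.65 over 13580 coding genes of the RIP fit. This put the YBX1 5′UTR at percentile 42.2 and that of YBX3 at 86.9. The YBX3 3′UTR was at percentile 97.0 and that of YBX1 at 39.9, whereas the coding sequence of YBX1 was at 76.8 and that of YBX3 at 61.2. A run of pyrimidines at the first base, which marks TOP mRNAs, was found in EEF1A1 (7 bases), RPL26 (12), RPLP0 (9), TPT1 (7) and RPL39 (19), but not in RPL4, RPL23A, ZNF169 or either Y-box mRNA, all of which begin with A as annotated. Of 13608 mRNAs, 5.24% began with C in a run of at least 5 pyrimidines. These are descriptions of the annotated mRNAs, whose starts in these cells were not measured. They therefore do not decide which of these mRNAs, the Y-box mRNAs included, begin with a pyrimidine run in the cells.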

How the data were processed

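RIP-Seq, sucrose gradient and siRNA libraries of HEK293 cells (40 libraries, 12 groups) were analysed. The authors prepared stranded mRNA libraries, aligned the reads to hg19 with TopHat2 and counted them per gene symbol with htseq-count. Per the labels base calls came from bcl2fastq 2.0. The strand option and other versions are not given in the sources used here. The deposited files hold raw counts, and a further deposited table of the authors' own IP tests (fold changes, mean CPM, likelihood ratio, p-value and FDR) was not used.

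One quasi-likelihood model per experiment was fitted to the counts with edgeR 4.0.16 (TMM, filterByExpr, 17474, 16776 and 14064 genes), with the groups as terms, two-sided tests and Benjamini-Hochberg FDR over all genes of a comparison. Adjusted values are called at 0.05. DESeq2 1.42.0 served as an alternative. SE is the size of the log2 fold change divided by the square root of F. CPM divides a count by the effective library size, the summed counts of the genes in the fit times the TMM factor of the library, so CPM are comparable between libraries of an experiment and are not plain shares of the deposited total. Ratios by gradient use log2(CPM + 0.5), and a gradient is assumed to be the subpolysomal and polysomal library of the same siRNA and replicate number. Gene models, lengths and sequences are from GENCODE on GRCh37 (the build hg19), where 99.6% of 13662 coding genes of the RIP fit had a value.

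Not every cold-shock domain gene is reported here. The members and gene lists were chosen with earlier results of these data known. Named were both members, cold-shock domain genes and Y-box pseudogenes with a mean of at least 1 CPM in some group, the targeted genes, examples of the partner and modifier lists, and the 5 nearest genes, from genes with a mean of at least 10 CPM. Same-numbered RIP samples deviated together (all 18 correlations between 0.18 and 0.78), so their numbers were taken to pair them. The same held between control and CNOT1 siRNA for input (4 of 4 correlations, 0.20 to 0.36) and subpolysomal RNA (4 of 4, 0.59 to 0.74), but not for polysomal RNA (1 of 4, -0.56 to 0.10). Nothing states that replicates were separate cultures, so p-values measure the spread between these samples. The fit was tested on simulated data.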

Additional observations from a re-analysis of the deposited data

Results flagged for a closer look

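Within the groups of 4 libraries, 2 values of the cold-shock domain genes stood apart from the other 3 libraries of their group by Dixon's criterion, among 30 sets examined, of which chance would give about 1 in 20. LIN28B had 264 CPM in the library labelled CNOT1 siRNA polysomal replicate 3, against 157 to 173 in the others. The library labelled control siRNA polysomal replicate 3 had 179 CPM, and the other control siRNA polysomal libraries had 230 to 259. These replicate 3 libraries are the 2 whose CNOT1 counts go against their labels, and what set the value of 264 CPM apart was not tested. CARHSP1 had 53.0 CPM in CNOT1 siRNA input replicate 3, against 60.5 to 61.1.

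The effect of CNOT1 siRNA on YBX3 differed between fractions. The polysomal effect minus the subpolysomal effect was 0.73 on the log2 scale (edgeR FDR = 0.0226), with the limits given beside the polysome shift.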

How the results depend on the processing

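Over the alternatives run, 699 values for single genes kept their direction and, where tested, their side of the threshold. YBX1 values without a test counted as kept when the sign held and the move stayed below the spread between libraries. Further, 21 values lost a call, 17 gained one and 38 changed sign. The 38 that changed sign had not been called. Without both polysomal libraries of replicate 3, YBX3 after CNOT1 siRNA in polysomal RNA moved from -0.25 to -0.41 (edgeR FDR = 0.0238; -0.34 to -0.16 with single libraries left out). Its gradient ratio difference was 0.53, and 0.56 to 0.89 with single gradients left out. For the polysome shift, CARHSP1 was -0.12 and CSDC2 0.29. The CARHSP1 shift was -0.027 under DESeq2, -0.027 under RLE factors and -0.078 without a filter. With only the compared libraries the YBX3 shift was 0.73 (edgeR FDR = 0.131). The cause was not tested.

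Leaving out single libraries gave -0.32 to 0.15 for YBX3 between the eIF4A2 and eIF4A1 IPs. After TNRC6A/B siRNA it gave -0.29 to 0.46 for YBX1 and -0.31 to 0.34 for YBX3, where the lone library is assumed to vary like the others. CARHSP1 ranged from -0.22 to 0.095 in the eIF4A1 IP. CSDC2 ranged from -0.16 to 0.074 in the eIF4A2 IP, -0.14 to 0.17 in the DDX6 IP and -0.22 to 0.081 between them. LIN28B in subpolysomal RNA ranged from -0.055 to 0.16. In the polysome shift the ranges were -0.10 to 0.096 for CARHSP1 and -0.49 to 0.10 for CSDC2.

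Counts of genes called (higher and lower) moved as follows. Between the eIF4A2 and eIF4A1 IPs, 170 and 15 became 541 and 159 with DESeq2, 459 and 538 without a filter, and 23 and 0 with only the compared libraries. They were 59 and 1 without eIF4A1 IP replicate 2, 42 and 4 without its replicate 3, 105 and 3 without eIF4A2 IP replicate 1 and 67 and 1 without its replicate 3, and 35 were lower without eIF4A1 IP replicate 1. Between the DDX6 and eIF4A1 IPs, 14 and 2 became 362 and 177, 130 and 102, and 0 and 0, and they were 0 and 0, 8 and 5, and 2 and 0 without eIF4A1 IP replicate 1, 2 and 3, and 3 and 0, 11 and 1, and 6 and 0 without DDX6 IP replicate 1, 2 and 3. Between the eIF4A2 and DDX6 IPs, 1716 and 1969 became 928 and 725 without eIF4A2 IP replicate 1 and 750 and 736 without DDX6 IP replicate 2, with 1195 lower without eIF4A2 IP replicate 3 and 1130 higher without DDX6 IP replicate 1. CNOT1 siRNA in input went from 2245 and 2614 to 4992 and 4735 with only the compared libraries, to 1370 to 1475 higher without control input replicate 1, 2 or 3, and to 1393 and 1583 without CNOT1 siRNA input replicate 3. In polysomal RNA 0 and 0 became 3 and 43 without a filter, 1714 and 1160 without control polysomal replicate 3, 206 and 405 without CNOT1 siRNA polysomal replicate 3, and 2942 and 2511 without both. The polysome shift went from 547 and 402 to 259 and 650 without a filter, to 92 and 62 with only the compared libraries, and to 753 lower with DESeq2. It was 1230 and 824 without control polysomal replicate 3, 1735 and 1282 without both polysomal libraries, 266 lower without control subpolysomal replicate 1 and 363 higher without CNOT1 siRNA subpolysomal replicate 3. TNRC6A/B siRNA went from 0 and 0 to 6 and 2 with DESeq2 and 20 and 3 without a filter.

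In the gradient experiment, 33 of 60 same-numbered correlations exceeded 0.1. The numbers were taken to pair input and subpolysomal samples between the siRNAs and not polysomal ones. With the replicate block YBX1 in input was -0.84 and YBX3 -0.53, and the YBX3 polysome shift was 0.74 (edgeR FDR = 0.0155). In the TNRC6 experiment the block gave 520 higher and 243 lower genes, with YBX1 at 0.04 and YBX3 at -0.03. The block changed no call of YBX1 or YBX3, and moved no count of calls in input or subpolysomal RNA by over 1.5 times.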

Other observations

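The mRNAs of enzymes that act on YB-1, or on RNA that it reads, form a list of 10. The list covers the RSK and AKT kinases that phosphorylate YB-1, the ubiquitin ligases FBXO33, RBBP6 and HACE1, and NSUN2. NSUN2 is an RNA methyltransferase whose m5C marks YB-1 reads. In each eIF4A IP 5 of the 10 passed as higher than total RNA and 3 as lower, with a median log2 fold change of 0.41 (eIF4A1) and 0.53 (eIF4A2). In the DDX6 IP 6 passed as higher and 3 as lower, with a median of 0.50. Over all genes 52.6%, 50.3% and 46% were called, and the median lay at 0.04, 0.01 and 0.01. In the eIF4A2 IP RPS6KA2 (1.32, SE 0.17) and AKT1 (0.99, SE 0.14) were highest among those called, and RPS6KA1 had -0.78 (SE 0.15). In the control gradients 4 of the 10 were higher in polysomal RNA and 2 lower (5 and 2 without polysomal replicate 3), where 71.7% of all genes were called. RPS6KA1 had 1.51 (SE 0.13) and NSUN2 1.06 (SE 0.10). For the polysome shift after CNOT1 siRNA 1 passed, RPS6KA1, at -0.66 (SE 0.18, edgeR FDR = 0.0341), where 5.66% of all genes were called. Without polysomal replicate 3, where 18% were called, RPS6KA1 had -0.41 (SE 0.14, edgeR FDR = 0.037), AKT1 was also lower (-0.98, SE 0.31, edgeR FDR = 0.029) and RBBP6 was higher (0.94, SE 0.26, edgeR FDR = 0.0128).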
